A study of Mus musculus with 8 samples.

Results

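The genes described here are the amino acid transporters of the solute carrier families SLC1, SLC3, SLC7, SLC38 and SLC43 in mesenchymal cells of the mouse large intestine, measured by RNA sequencing. They were taken by name, as all symbols of these families with a number after the family letter, and the cystine carrier gene Slc7a11 was left out by that rule. This gave 37 of the 24346 genes listed in the tables: 7 of SLC1, 2 of SLC3, 14 of SLC7, 11 of SLC38 and 3 of SLC43. Of these, 29 reached at least 1 FPKM (fragments per kilobase of transcript, scaled to the mapped fragments of the library, a level per length) in a library and are reported by value, and 8 stayed under 1 FPKM in every library.

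The cells were sorted from the large intestine as negative for CD45, EpCAM, CD31 and Ly6C, positive for gp38 and high for PDGFRα. From C57BL/6 mice, 3 libraries were made 6 h and 3 libraries 0 h into treatment with GABA at 1 mM and taurine at 20 mM. There was no untreated 6 h library among them, so time and treatment cannot be told apart, and the labels do not say whether the cells were cultured. From untreated mice whose Cxcl12 gene is floxed on both alleles, 1 library carried Foxl1cre, which is active where the Foxl1 promoter is, and 1 library without Cre was the control. The labels state no ages, nor whether the replicates were separate mice or cultures, so their p-values measure the spread between these libraries only.

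Amino acid carriers of these families share out the work at the plasma membrane and the lysosome. Slc3a2 encodes the heavy chain 4F2hc (CD98), a glycoprotein that brings light chains of the SLC7 family to the cell surface, where the pair exchanges large neutral or basic amino acids. Slc7a1 to Slc7a3 encode cationic amino acid carriers that work without a heavy chain. SLC1 holds the glutamate carriers and the neutral exchangers ASCT1 (Slc1a4) and ASCT2 (Slc1a5), SLC38 the sodium-coupled glutamine and alanine carriers together with lysosomal members, and SLC43 facilitators of large neutral amino acids. When amino acids run short, the kinase GCN2 raises translation of the transcription factor ATF4, which binds together with C/EBP factors to composite elements near target genes, several amino acid carriers among them. GABA and taurine themselves are carried mainly by another family, SLC6.

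Sequences of 3 promoters are shown. Those of Slc1a4 and Slc7a7 were taken for holding the core letters of the composite C/EBP-ATF element. That of Slc3a2 was taken because the gene encodes the heavy chain shared by several members. The promoters, from RefSeq on GRCm38.p6, run from 250 bases before to 50 after an annotated start on the strand of the gene, which is minus for all 3. They lie at chr11:20332664-20332963 (Slc1a4), chr14:54417895-54418194 (Slc7a7, the most upstream of its starts in the table) and chr19:8713848-8714147 (Slc3a2). The Slc3a2 start used is the only one listed and lies inside the gene, whose annotated upstream end is at 8723369. The Slc7a7 start used also lies inside its gene, whose annotated upstream end is at 54420068. Capitals mark the letters TGATGNAA, searched on both strands, with no other motif searched.
Slc1a4: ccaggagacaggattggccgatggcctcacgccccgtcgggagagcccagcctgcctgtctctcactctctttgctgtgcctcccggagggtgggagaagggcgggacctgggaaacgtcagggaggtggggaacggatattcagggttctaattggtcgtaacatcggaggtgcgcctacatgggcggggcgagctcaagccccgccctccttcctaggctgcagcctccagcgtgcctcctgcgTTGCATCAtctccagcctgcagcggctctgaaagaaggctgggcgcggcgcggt
Slc7a7: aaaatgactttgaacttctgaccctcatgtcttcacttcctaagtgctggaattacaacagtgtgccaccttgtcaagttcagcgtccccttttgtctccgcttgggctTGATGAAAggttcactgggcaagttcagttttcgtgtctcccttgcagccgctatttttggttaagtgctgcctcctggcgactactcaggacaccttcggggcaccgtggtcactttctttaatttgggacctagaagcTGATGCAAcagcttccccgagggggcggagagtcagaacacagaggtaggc
Slc3a2: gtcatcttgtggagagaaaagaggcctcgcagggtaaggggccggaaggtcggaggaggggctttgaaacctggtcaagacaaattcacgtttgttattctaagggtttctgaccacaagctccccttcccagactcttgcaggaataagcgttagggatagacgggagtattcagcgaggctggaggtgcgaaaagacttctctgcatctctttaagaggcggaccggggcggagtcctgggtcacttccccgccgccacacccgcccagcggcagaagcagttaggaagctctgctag
In Slc1a4 the match reads TGATGCAA on the strand opposite to the gene and begins 4 bases before the start. In Slc7a7 a match TGATGAAA begins 141 bases and a match TGATGCAA 1 base before this start. Of 27 members with a promoter entry, 2 held a match in 1 or more of their starts, and 3 of the 38 promoters of these genes did (7.89%), against 3.97% of all 32851 promoters in the table. The third promoter is that of a later Slc7a7 start and holds the same TGATGCAA. A match describes letters in this window and is no evidence of binding. Slc7a5 and Slc1a5 had no entry.

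Per library, between 14818 and 14974 genes stood above 0 in the 6 GABA and taurine libraries, against 20874 in the Foxl1-cre and 21006 in the control library. The read number is unknown. By the steps between low values, the depth of the 0 h replicate 1 library was estimated at 4.14 times that of the control, from 8.81% of 726 low genes. Cxcl12 stood at 739.7 FPKM in the Foxl1-cre library and at 1298 FPKM in the control library, and Foxl1 at 11.6 FPKM in the Foxl1-cre and 10.2 FPKM in the control library, while Foxl1 lay between 0.109 and 0.289 FPKM in the GABA and taurine libraries. All 7 general mesenchymal markers, Pdgfra and Pdpn among them, were above 1 FPKM in all 8 libraries. Their sum lay between 2293 and 2477 FPKM in the GABA and taurine libraries and was 14170 FPKM in the Foxl1-cre and 12723 FPKM in the control library. Dcn lay between 288 and 364 FPKM in the GABA and taurine libraries and at 6218 and 5741 FPKM in the Foxl1-cre and control libraries, while Vim lay between 1165 and 1344 FPKM and at 605 and 532 FPKM in the same order. The part of these shifts in the differences between the sets was not tested. Epithelial markers (13 genes) summed to between 2.78 and 8.43 FPKM in the GABA and taurine libraries, to 1059 FPKM in the Foxl1-cre library and to 112.4 FPKM in the control library. Leukocyte markers (10 genes) summed to between 1.23 and 11.9 FPKM in the GABA and taurine libraries and to between 234.5 and 281.1 FPKM in the genotype libraries, and endothelial markers (8 genes) to between 1.65 and 5.12 FPKM in the GABA and taurine libraries and between 21.2 and 44.5 FPKM in the genotype libraries.

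Together the 37 members held between 0.142% and 0.152% of all FPKM in the GABA and taurine libraries, and 0.101% in the Foxl1-cre and 0.0996% in the control library. A few genes held most of this, as the 4 highest in each library made up between 75.6% and 78.0% of the members' sum in the GABA and taurine libraries and between 69.8% and 72.6% in the genotype libraries. Slc1a5 came first, Slc3a2 next and Slc43a3 after it in each of the 6 GABA and taurine libraries. In both genotype libraries the order was Slc43a3, Slc38a2, Slc1a5 and Slc38a10. By mean FPKM among all listed genes, Slc1a5 ranked 380 in the GABA and taurine set and 1030 in the genotype set, Slc3a2 507 in the GABA and taurine set and 1808 in the genotype set, and Slc7a5 1653 in the GABA and taurine set and 7514 in the genotype set. Levels are compared between the sets as deposited, since scaling between libraries is not stated. The sets may have been normalised separately and differ in mice and handling, so no test was run between them.

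**Figure D1:**
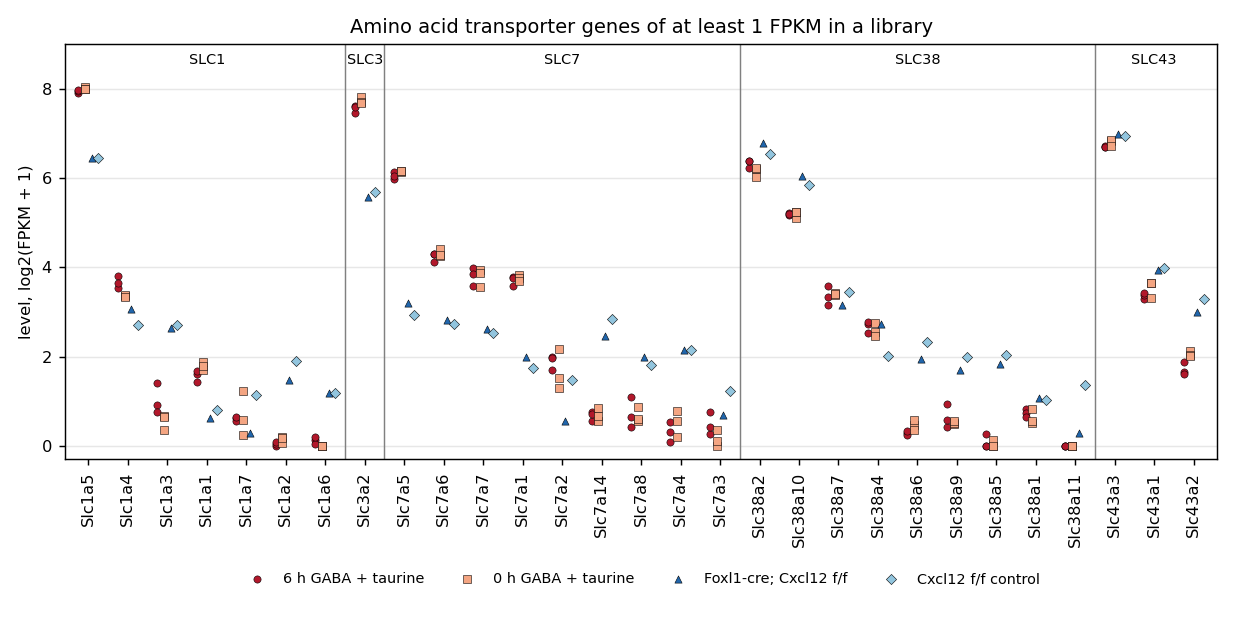
Level of each of the 29 reported genes on the log2(FPKM + 1) axis in every library, grouped by family and ordered by mean level within it; each point is 1 library. Slc1a5, Slc3a2 and Slc7a5 lie higher in the 6 GABA and taurine libraries than in both genotype libraries, and the least expressed SLC38 and SLC7 genes lie near 0 in the GABA and taurine libraries.

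Slc3a2 and 3 of its light chain genes were higher in the GABA and taurine set. Slc7a5, the gene of the large neutral amino acid exchanger LAT1, stood at 62.1, 69.1 and 64.9 FPKM at 6 h and at 69.3, 70.3 and 70.2 FPKM at 0 h, against 8.24 FPKM in the Foxl1-cre and 6.66 FPKM in the control library. The mean of the GABA and taurine libraries was 9.08 times that of the genotype libraries, a difference of 3.03 on the log2(FPKM + 1) scale. Slc7a5 lies on chromosome 8 from 121881146 to 121907686 (GRCm38). Slc3a2, on chromosome 19 from 8706882 to 8723369, stood at 174, 193 and 193 FPKM at 6 h and at 222, 208 and 205 FPKM at 0 h, against 46.8 FPKM in the Foxl1-cre and 50.4 FPKM in the control library. That is a ratio of means of 4.10 and a log2 difference of 2.01. All 6 libraries of the GABA and taurine set lay above both genotype libraries for either gene.

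Slc7a6 and Slc7a7, the genes of the y+L exchangers of basic and neutral amino acids and also partners of 4F2hc, were higher by less. Slc7a6 stood at 16.5, 18.7 and 18.7 FPKM at 6 h and at 20.4, 18.1 and 18.3 FPKM at 0 h, against 6.11 FPKM in the Foxl1-cre and 5.63 FPKM in the control library (log2 difference 1.50). Slc7a7 stood at 11.1, 14.9 and 13.5 FPKM at 6 h and at 10.8, 14.4 and 13.6 FPKM at 0 h, against 5.19 FPKM in the Foxl1-cre and 4.76 FPKM in the control library (log2 difference 1.23). The exons of Slc7a7 share 232 bases with Oxa1l on the opposite strand, and Oxa1l too was higher in the GABA and taurine set (12.7 to 15.3 FPKM, against 8.04 and 7.76 FPKM in the Foxl1-cre and control libraries). The protocol does not mark strand, so the part of Oxa1l reads in Slc7a7 was not tested. Slc7a8, the gene of the second large neutral exchanger LAT2, went the other way, with 1.15, 0.352 and 0.566 FPKM at 6 h and 0.466, 0.832 and 0.512 FPKM at 0 h, against 2.98 FPKM in the Foxl1-cre and 2.49 FPKM in the control library.

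Heavy and light chains differed between the sets by similar factors, and the mix of light chains did not stay alike. The 5 light chains of 4F2hc among the members (Slc7a5, Slc7a6, Slc7a7, Slc7a8 and Slc7a10) summed to between 90.8 and 103.6 FPKM in the GABA and taurine libraries, against 22.5 FPKM in the Foxl1-cre and 19.7 FPKM in the control library. Slc3a2 over this sum lay between 1.88 and 2.20 in the GABA and taurine libraries, against 2.08 in the Foxl1-cre and 2.56 in the control library, so the ranges overlapped. Slc7a5 made up between 66.4% and 68.6% of the light chain sum in the GABA and taurine libraries, against 36.6% in the Foxl1-cre and 33.9% in the control library. The light chain that the rule leaves out, Slc7a11, stood at 6.52 to 11.2 FPKM in the GABA and taurine libraries, against 1.05 FPKM in the Foxl1-cre and 0.615 FPKM in the control library. With it in the sum, the ratio was 1.72 to 2.07 in the GABA and taurine libraries and 1.99 and 2.48 in the Foxl1-cre and control libraries.

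**Figure D2:**
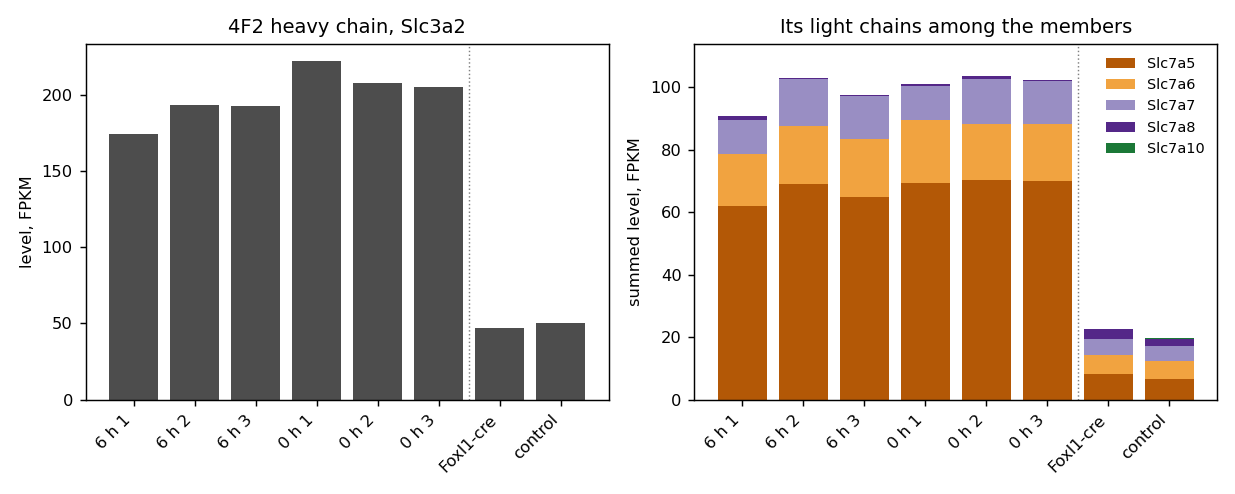
Level in FPKM of the heavy chain gene Slc3a2 (left) and of its light chain genes stacked (right) in each of the 8 libraries, with the replicate number after the time. Slc3a2 and the light chain sum are higher in the 6 GABA and taurine libraries, and Slc7a5 takes more of the stack there (66.4% to 68.6%) than in the Foxl1-cre (36.6%) and control (33.9%) libraries.

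Slc1a5 and Slc7a1 were the other members higher in the GABA and taurine set by the rule used here, a difference of at least 1 on the log2 scale with no overlap between the sets. Slc1a5, the gene of the sodium-dependent glutamine exchanger ASCT2 on chromosome 7 from 16781334 to 16798274, stood at 237, 245 and 250.3 FPKM at 6 h and at 262, 254 and 252 FPKM at 0 h. Both genotype libraries stood at 86.3 FPKM, which gives a log2 difference of 1.52. Slc1a5 alone made up between 29.9% and 30.7% of the members' sum in the GABA and taurine libraries, and 16.2% in the Foxl1-cre and 16.9% in the control library. Slc7a1, the gene of the cationic amino acid carrier CAT1, stood at 12.7, 12.5 and 11.1 FPKM at 6 h and at 13.1, 12.6 and 11.9 FPKM at 0 h, against 2.97 FPKM in the Foxl1-cre and 2.37 FPKM in the control library (log2 difference 1.86). Slc1a4, the gene of ASCT1, had a difference of 0.62 and missed the rule.

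In all, 6 of 24 members that averaged 1 FPKM or more over the sets were higher and 9 were lower in the GABA and taurine set by this rule, while 18.0% of all 13182 genes were higher and 28.0% lower. The median difference of the 24 members was -0.32 on the log2 scale, beside -0.10 over all genes. With quantile normalisation over the 8 libraries the split was 8 higher and 3 lower, and that over all genes 22.2% higher and 18.1% lower. That scaling moved the median of all genes by 0.21, and the members' median lay 0.22 below that of all genes with either scaling. The 6 members named above as higher kept that call under each of the 7 alternatives. With the values as deposited, calls differed by level, both for members and for all genes. Of the 11 members that averaged 10 FPKM or more over either set, 6 were higher and 0 lower. Over all 7623 genes of that level, 27.6% were higher and 19.3% lower. Of the 13 members under 10 FPKM on average in both sets, 0 were higher and 9 lower. Over all 5559 genes of that level, 4.68% were higher and 39.9% lower. The part of level in the members' calls was not tested.

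**Figure D3:**
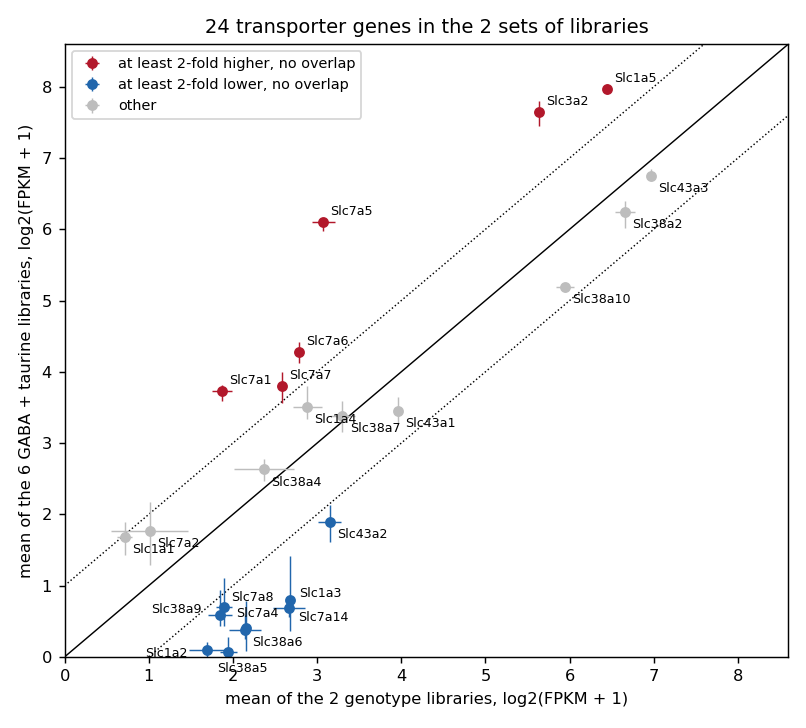
Mean level of 24 genes in the 6 GABA and taurine libraries (vertical axis) against the 2 genotype libraries (horizontal axis), both log2(FPKM + 1); whiskers run from the lowest to the highest library and dotted lines mark a difference of 1. The 6 genes in red, Slc7a5 farthest at 3.03, lie above the upper line and the 9 in blue below the lower one.

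The 9 lower members stood under 10 FPKM in every library. Slc43a2, the gene of the facilitator LAT4 and the highest of them, stood at 2.17, 2.07 and 2.69 FPKM at 6 h and at 3.39, 3.08 and 3.02 FPKM at 0 h, against 7.04 FPKM in the Foxl1-cre and 8.77 FPKM in the control library. Slc1a3, the gene of the glutamate carrier GLAST of glia, stood at 0.891, 1.67 and 0.689 FPKM at 6 h and at 0.591, 0.557 and 0.289 FPKM at 0 h, against 5.26 FPKM in the Foxl1-cre and 5.50 FPKM in the control library. Slc1a2, the gene of the main glutamate carrier of astrocytes, stood at 0, 0.0269 and 0.0609 FPKM at 6 h and at 0.0502, 0.150 and 0.131 FPKM at 0 h, against 1.78 FPKM in the Foxl1-cre and 2.71 FPKM in the control library. The glial and neuronal marker list does not follow them: its 6 genes summed to between 13.1 and 16.3 FPKM in the GABA and taurine libraries, mostly from Uchl1, against 5.74 and 6.93 FPKM in the Foxl1-cre and control libraries. Of its glial genes, Sox10 lay between 0 and 0.0423 FPKM in the GABA and taurine libraries and at 0.379 and 0.396 FPKM in the Foxl1-cre and control libraries.

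Slc38a5, a system N glutamine carrier gene, stood at 0, 0 and 0.212 FPKM at 6 h and at 0, 0.0959 and 0 FPKM at 0 h, against 2.58 FPKM in the Foxl1-cre and 3.12 FPKM in the control library. Slc38a6 stood at 0.222, 0.188 and 0.255 FPKM at 6 h and at 0.385, 0.501 and 0.274 FPKM at 0 h, against 2.88 FPKM in the Foxl1-cre and 4.04 FPKM in the control library. Slc38a9, whose protein senses arginine at the lysosome for the kinase mTORC1, stood at 0.921, 0.351 and 0.485 FPKM at 6 h and at 0.405, 0.421 and 0.468 FPKM at 0 h, against 2.25 FPKM in the Foxl1-cre and 2.96 FPKM in the control library. For these SLC38 genes all 6 GABA and taurine libraries lay below both genotype libraries. Slc7a14 stood at 0.684, 0.468 and 0.645 FPKM at 6 h and at 0.7997, 0.468 and 0.594 FPKM at 0 h, against 4.54 FPKM in the Foxl1-cre and 6.22 FPKM in the control library. Slc7a4 stood at 0.0552, 0.239 and 0.445 FPKM at 6 h and at 0.718, 0.474 and 0.150 FPKM at 0 h, against 3.46 FPKM in the Foxl1-cre and 3.41 FPKM in the control library. The exons of Slc7a4 share 554 bases (13.3%) with P2rx6 on the opposite strand. P2rx6 moved with Slc7a4, lying between 0 and 0.305 FPKM in the GABA and taurine libraries against 12.2 and 10.4 FPKM in the Foxl1-cre and control libraries. As the protocol does not mark strand, the part of P2rx6 reads in Slc7a4 was not tested. Lower sums of epithelial, leukocyte and endothelial markers and fewer genes above 0 went with the GABA and taurine set for all 9, and their part in these differences was not tested. In bulk libraries, fewer cells of a type and less RNA per cell cannot be told apart.

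Slc38a2, Slc38a10, Slc43a3 and Slc43a1 missed the rule on the lower side. Slc38a2, the gene of the system A carrier SNAT2, stood at 82.9, 74.2 and 81.9 FPKM at 6 h and at 63.8, 72.1 and 74.0 FPKM at 0 h, against 109.0 FPKM in the Foxl1-cre and 91.8 FPKM in the control library (log2 difference -0.42). Slc38a10 stood at 34.8, 36.1 and 35.4 FPKM at 6 h and at 33.6, 36.8 and 36.5 FPKM at 0 h, against 65.4 FPKM in the Foxl1-cre and 56.2 FPKM in the control library (log2 difference -0.75, and -1.11 with quantile normalisation). Slc43a3, known from the human protein as a carrier of purine nucleobases, stood at 101.7, 104.4 and 102.3 FPKM at 6 h and at 112.8, 113.8 and 104.7 FPKM at 0 h, against 125.3 FPKM in the Foxl1-cre and 122.5 FPKM in the control library (log2 difference -0.22). All 6 GABA and taurine libraries lay below both genotype libraries for each of these 3 genes. Slc43a1, the gene of the facilitator LAT3, stood at 8.76, 9.48 and 9.76 FPKM at 6 h and at 9.01, 11.6 and 11.5 FPKM at 0 h, against 14.4 FPKM in the Foxl1-cre and 14.8 FPKM in the control library. Slc38a7, whose protein carries glutamine out of lysosomes, had a difference of 0.08, and Slc38a4, a system A carrier gene, one of 0.26.

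Between 6 h and 0 h no member passed the test, and the log2 changes of the members ran from -0.33 to 0.30. In limma, 0 of the 16 members that averaged 1 FPKM or more over these libraries had a Benjamini-Hochberg adjusted p under 0.05, where 0.55% of all 10910 genes did. With a share this small, 0 of 16 says little about the members. Among the members, 4 had an unadjusted p under 0.05 (25%, against 9.38% of all genes). The adjusted p of a member did not go below 0.321. The 60 calls over all genes became 6 without 0 h replicate 1, 3 without 0 h replicate 2 and 115 without 0 h replicate 3. They became 4 without 6 h replicate 1 and 2 without 6 h replicate 2. Without 6 h replicate 3, 5 genes were called higher and 36 lower. No filter gave 0 calls, as did a fit without the intensity trend. The median log2 change of the 16 was -0.06, beside -0.0019 over all genes, with 11 negative and 5 positive. The 6 h values lay all below the 0 h values for 6 of the 16 and all above for 2, where 8.01% and 7.25% of all genes did so.

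The 4 smallest p-values belonged to genes that moved in both directions. Slc1a4 stood at 10.6, 12.9 and 11.5 FPKM at 6 h and at 9.20, 9.33 and 9.14 FPKM at 0 h, so that every 6 h library was above every 0 h library. Its log2 change was 0.30 with a 95% interval from 0.07 to 0.54 (limma, adjusted p = 0.365). Slc38a2, with the values given above, also lay higher in every 6 h library, at a log2 change of 0.19 with an interval from 0.03 to 0.34 (limma, adjusted p = 0.430). Slc3a2 averaged 186.8 ± 10.8 FPKM at 6 h and 211.7 ± 9.30 FPKM at 0 h (SD, n = 3 each), with a log2 change of -0.18 and an interval from -0.31 to -0.05 (limma, adjusted p = 0.321). Slc43a2 averaged 2.31 ± 0.335 FPKM at 6 h and 3.16 ± 0.195 FPKM at 0 h, with a log2 change of -0.33 and an interval from -0.66 to -0.003 (limma, adjusted p = 0.526).

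The libraries did not overlap either for Slc43a3 (log2 change -0.10), Slc7a5 (-0.10), Slc1a5 (-0.07) and Slc1a1 (-0.22), all lower at 6 h. Slc7a5 averaged 65.4 ± 3.53 FPKM at 6 h and 69.9 ± 0.522 FPKM at 0 h, and Slc1a5 averaged 244.2 ± 6.87 FPKM at 6 h and 255.8 ± 5.46 FPKM at 0 h. The 95% intervals of these 2 genes ran from -0.23 to 0.04 and from -0.17 to 0.04, so a 2-fold change lies outside them. Slc1a1, the gene of the glutamate carrier EAAC1, averaged 1.98 ± 0.259 FPKM at 6 h and 2.47 ± 0.236 FPKM at 0 h. It shares 31.9% of its exon bases with 4430402I18Rik on the opposite strand, which lay between 0.164 and 0.372 FPKM in the 6 libraries. Slc7a1, Slc7a6, Slc7a7, Slc7a2, Slc38a4, Slc38a7, Slc38a10 and Slc43a1 had overlapping libraries and log2 changes between -0.17 and 0.22. Slc3a2 over the light chain sum averaged 1.92 ± 0.0482 at 6 h and 2.07 ± 0.114 at 0 h.

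**Figure D4:**
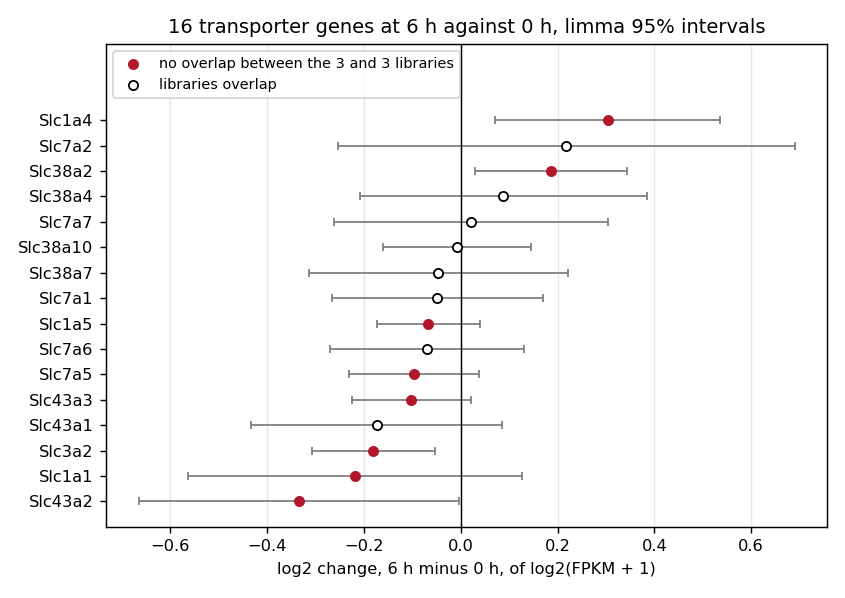
Log2 change of 16 genes at 6 h against 0 h on the log2(FPKM + 1) scale, with 95% limma intervals; filled points are genes whose 3 libraries at 6 h and 3 at 0 h do not overlap. Slc1a4 (0.30) is the highest and Slc43a2 (-0.33) the lowest point, and no gene passed the adjusted test.

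Related genes were tested in the same fit. Of the 2 tested SLC6 carriers of amino acids (of 10 listed), none passed, with Slc6a9, a glycine carrier gene, at 5.11 ± 0.617 FPKM at 6 h and 5.53 ± 0.383 FPKM at 0 h and Slc6a15 at 3.09 ± 0.445 FPKM at 6 h and 2.79 ± 0.730 FPKM at 0 h. Of 9 tested genes of the SLC36, SLC16 and lysosomal carriers none passed, and 3 had an unadjusted p under 0.05, where 9.38% of all genes did. All 3 had higher means at 6 h. These were Slc36a4 (6.51 ± 0.441 FPKM at 6 h and 4.92 ± 0.687 FPKM at 0 h), Slc15a3, a peptide and histidine carrier gene (2.84 ± 0.251 FPKM at 6 h and 1.90 ± 0.563 FPKM at 0 h), and Ctns, the gene of the lysosomal cystine carrier (8.66 ± 0.943 FPKM at 6 h and 6.89 ± 0.696 FPKM at 0 h).

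Of 16 tested genes of the GCN2 and ATF4 response 1 rose and none fell, and 7 had an unadjusted p under 0.05. Over all genes, 0.55% passed and 9.38% had such an unadjusted p. Changes of the 16 were 8 positive and 8 negative, with a median log2 change of 0.06. The gene that rose was Chac1, whose enzyme breaks down glutathione, with 11.9 ± 1.39 FPKM at 6 h and 5.59 ± 1.35 FPKM at 0 h (log2 change 0.99, SE 0.16; limma, adjusted p = 0.0275). This call was lost in 7 of 14 alternatives, with limma adjusted p of 0.314 without a filter, 0.291 without the trend, and 0.0573 to 0.144 without any 1 of 6 h replicates 1 to 3 and 0 h replicates 1 and 2, at log2 changes between 0.81 and 1.07. Asns, the asparagine synthetase gene, averaged 194.0 ± 6.03 FPKM at 6 h and 223.0 ± 17.9 FPKM at 0 h (limma, adjusted p = 0.314), and Trib3 20.6 ± 4.65 FPKM at 6 h and 14.7 ± 3.61 FPKM at 0 h (limma, adjusted p = 0.387). Of 29 tested genes of amino acid sensing by mTORC1 none passed and none had an unadjusted p under 0.05, with Sesn1, Lamtor5 and Rheb closest, at log2 changes of 0.30, -0.10 and 0.08. Of 16 tested enzymes that use glutamine, aspartate, arginine or branched-chain amino acids none passed. The smallest p-values there were those of the proline dehydrogenase gene Prodh (11.7 ± 0.480 FPKM at 6 h and 14.4 ± 0.699 FPKM at 0 h), Glud1 (82.0 ± 2.13 FPKM at 6 h and 91.9 ± 4.71 FPKM at 0 h) and the glutamine synthetase gene Glul (38.2 ± 2.85 FPKM at 6 h and 45.2 ± 5.11 FPKM at 0 h).

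In the Foxl1-cre library the transporters stood close to the control library. With 1 library per genotype there is no replicate check and no test. Of 25 members that averaged 1 FPKM or more over both libraries, 0 were higher and 0 were lower by 2-fold or more on the log2(FPKM + 1) scale, where 1.36% and 2.22% of all 14949 genes were. With shares this small, 0 of 25 does not set the members apart from other genes. The median difference was 0.0006, beside 0.04 over all genes, with 13 members higher and 12 lower. Among the 6 members that averaged 10 FPKM or more, the differences ran from -0.10 for Slc3a2 to 0.24 for Slc38a2, and Slc1a5 stood at 86.3 FPKM in both libraries.

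Among the 25 members that averaged 1 FPKM or more, the widest differences belonged to those under 10 FPKM. Slc38a4 stood at 5.61 FPKM in the Foxl1-cre library and 3.03 FPKM in the control library (log2 difference 0.71), followed by Slc1a4, with 7.32 FPKM in the Foxl1-cre and 5.55 FPKM in the control library (0.35), and Slc7a5 (0.27). On the lower side were Slc7a2, the gene of a cationic carrier induced in activated macrophages, with 0.463 FPKM in the Foxl1-cre and 1.77 FPKM in the control library (-0.92), Slc1a2 (-0.42) and Slc7a14 (-0.38). Slc7a2 was past 2-fold with a pseudocount of 0.1, at -1.73. Members that averaged under 1 FPKM were not ranked. Among those, Slc38a11 was lower by more than Slc7a2 (-1.06 without the filter), and others were higher, Slc7a9 among them. Of the heteromeric carrier of cystine and basic amino acids in kidney and gut epithelium, the light chain gene Slc7a9 stood at 0.956 FPKM in the Foxl1-cre and 0.247 FPKM in the control library. The heavy chain gene Slc3a1 stood at 0.453 FPKM in the Foxl1-cre and 0.568 FPKM in the control library, and both lay between 0 and 0.0253 FPKM in the GABA and taurine libraries. Slc3a1 shares 26.5% of its exon bases with Prepl on the opposite strand, which stood at 8.14 and 6.85 FPKM in the Foxl1-cre and control libraries. The part of Prepl reads in Slc3a1 was not tested. The epithelial marker sum was 1059 FPKM in the Foxl1-cre and 112.4 FPKM in the control library, and its part in the differences of single members was not tested.

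**Figure D5:**
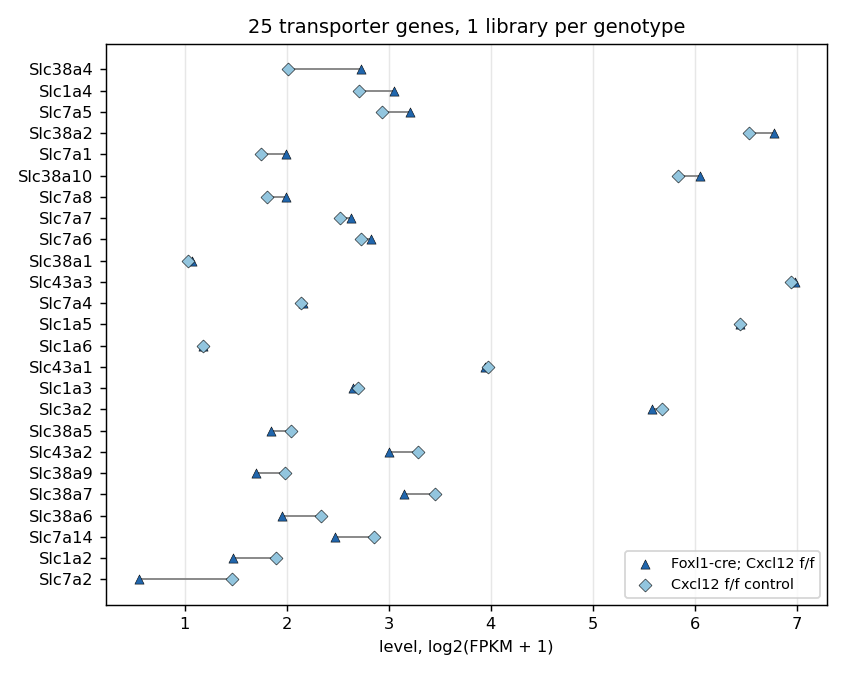
Level on the log2(FPKM + 1) axis of 25 genes in the Foxl1-cre library (triangles) and the control library (diamonds), ordered from the highest to the lowest difference. The 6 genes that average 10 FPKM or more differ by -0.10 to 0.24, and the longest line is that of Slc7a2 (-0.92).

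The other members were detected near the limit of the tables. In FPKM in the Foxl1-cre and then the control library, Slc38a1 stood at 1.10 and 1.04, Slc1a6, a glutamate carrier gene of Purkinje cells, at 1.26 and 1.27, and Slc1a7, one of retina, at 0.226 and 1.21. In the same order Slc7a3, a cationic carrier gene, stood at 0.613 and 1.34 and Slc38a11 at 0.227 and 1.56. In the GABA and taurine libraries Slc38a1 lay between 0.434 and 0.787 FPKM, Slc1a7 between 0.190 and 1.34, Slc7a3 between 0 and 0.698 and Slc1a6 between 0 and 0.155, and Slc38a11 was listed at 0 in all 6. Slc1a1 and Slc7a2 passed 1 FPKM in all 6. The threshold of 1 FPKM fell between Slc38a1, at 1.10 FPKM at most, and Slc7a13, at 0.988 FPKM at most. Under 1 FPKM in every library were Slc3a1, Slc7a9, Slc7a10, Slc7a12, Slc7a13, Slc7a15, Slc38a3 and Slc38a8. Of the 29 reported members, 28 reached 1 FPKM in a genotype library and 19 in a GABA and taurine library.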

How the data were processed

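Each of the 8 libraries has 1 deposited table with a value in FPKM per gene symbol, per the file headers. The tools, given without roles per the submitters' processing notes, were Cuffdiff 2.2.1, TopHat2 2.1.1, SAMtools 0.1.18 and Bowtie2 2.2.8, on the build mm10. cDNA was made by SMART-Seq HT and libraries by Nextera XT, per the labels' protocols. For the annotation, reads with several matches and scaling between libraries, the labels state nothing. Read numbers are unknown, so no counting interval is given, and a listed 0 may be a failed estimate.

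The 6 h and 0 h libraries were compared with limma 3.58.1 (R 4.3.3) on log2(FPKM + 1), with an intensity trend, over all 10910 genes that averaged 1 FPKM or more. Benjamini-Hochberg adjustment ran over all of these and the threshold was 0.05. The scale understates changes of genes near 1 FPKM. Genotypes and sets were compared as differences of log2(FPKM + 1) with no test. Alternatives changed the pseudocount, the filter, the scaling, the trend, the replicate block or the libraries. Same-numbered 6 h and 0 h libraries did not deviate together (r between -0.044 and 0.0126), so their numbers were not treated as pairs. No pair of libraries shared the values of more than 1 gene of at least 1 FPKM.

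Members and lists were chosen with earlier results of these data known. Members named with all values were those among the 5 smallest p at 6 h, the 8 highest mean levels, or called between genotypes or sets, and, of each related list, the 3 smallest p. Others are given by range or outside this rule. Promoters and gene positions come from RefSeq on GRCm38.p6 and overlaps from GENCODE M21 on GRCm38, the build the labels call mm10. All 37 members had a RefSeq gene entry.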

Additional observations from a re-analysis of the deposited data

How the results depend on the processing

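At 6 h against 0 h, 0 members passed in each direction under all 14 alternatives, including the fit with the replicate number as a block (replicate block: 0 higher and 0 lower, median -0.0575). Over all genes those fits called 0 to 85 genes, and 2 to 115 with 1 library left out, so 0 members says little there. The block gave 14 higher and 9 lower genes, against 26 and 34 without it. The members' median ran from -0.0798 to -0.0489 with 1 library left out and from -0.0679 to -0.0144 under the others. Signs of small changes turned in a few fits: Slc38a10 was 0.004 with quantile normalisation and -0.0482 to 0.0157 with 1 library left out, Slc7a7 lay between -0.0922 and 0.1327 over all fits and Slc7a1 between -0.083 and 0.0104. The low members were not tested with a minimum mean of 5 FPKM. Between genotypes, 1 member was at least 2-fold lower with a pseudocount of 0.1 (Slc7a2) and 1 without a filter (Slc38a11, -1.06), and 0 were higher in each of the 4 alternatives.

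Between the sets, the 6 higher members kept their call in all 7 alternatives, and 6 to 8 members were higher. The count of lower members went from 9 to 1 with a minimum mean of 5 FPKM. There 13 members were left and 18.0% of all genes were lower. With quantile normalisation the count was 3, where 18.1% of all genes were lower, and otherwise it was 8 or 9. The 3 were Slc1a3, Slc7a14 and Slc38a10, the last of which is not among the 9. Slc43a2, Slc1a2, Slc38a5, Slc38a6, Slc38a9, Slc7a4 and Slc7a8 lost the call with quantile normalisation. The members' median difference was 0.62 with that minimum (0.27 over all genes), -0.1053 with quantile (0.11 over all genes) and -0.2483 with median scaling (-0.03 over all genes). With a pseudocount of 0.1, Slc38a5 (-4.44) and Slc1a2 (-3.83) were further apart than Slc7a5 (3.17). The members' median difference was -0.2695 for the 0 h libraries against the control alone, -0.2483 without the Foxl1-cre library and -0.2323 without the control library. Apart from the minimum, which leaves fewer genes, the cause of these shifts was not tested. The unknown read number limits the low members, and 1 library per genotype allows no error on that comparison.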

Other observations

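Related genes between the 2 sets are given as values, with no test. Of 17 genes of the GCN2 and ATF4 response, 8 were higher and 3 lower in the GABA and taurine libraries by the rule used for the transporters, with a median log2 difference of 0.73. Asns lay between 188.2 and 235.2 FPKM in the GABA and taurine libraries and at 13.1 and 7.97 FPKM in the Foxl1-cre and control libraries. Trib3, the gene of an ATF4-induced pseudokinase, lay between 11.5 and 25.6 FPKM in the GABA and taurine libraries and at 1.29 and 1.08 FPKM in the Foxl1-cre and control libraries. Of 31 genes of amino acid sensing by mTORC1, 7 were higher and 3 lower, and of 16 enzymes that use the carried amino acids 4 were higher and 1 lower. Prodh, the proline dehydrogenase gene, lay between 11.2 and 15.2 FPKM in the GABA and taurine libraries and at 2.06 and 2.68 FPKM in the Foxl1-cre and control libraries. Over all genes the shares were 18.0% higher and 28.0% lower.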
